A study of Mus musculus with 13 samples.

Results

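Nr4a1, Nr4a2, Nr4a3, Egr1, Egr2, Egr3, Irf4, Irf8, Myc and Crem encode transcription factors whose transcripts are read as reporters of antigen receptor signalling in T cells. The members were taken by gene symbol from the deposited count table, where each symbol had 1 entry. They were 10 of 21084 listed genes, and all 10 were among the 15835 genes tested. The 13 bulk RNA sequencing libraries came from gamma delta (gd) intraepithelial lymphocytes, T cells that live between the epithelial cells of the gut, sorted from the small intestine of wild-type (WT) mice. In the UC7-IFNa group (3 libraries) mice had been injected with 200 µg of the hamster antibody UC7-13D5, which binds the gd T cell receptor (TCR), and then with 1 µg of interferon alpha (IFNa) intravenously. The UC7-PBS group (3 libraries) had the same antibody and phosphate buffered saline (PBS). The IgG-IFNa group (4 libraries) had Armenian hamster IgG, an antibody with no stated target, and IFNa, and the IgG-PBS group (3 libraries) had IgG and PBS. IFNa or PBS was given 5 hours before cell isolation. Antibody was given 48 and 24 hours before isolation according to the treatment protocol, while the design text leaves it open to a single time, so the number of doses per mouse is unclear. The labels call the libraries biological replicates. Whether a library came from 1 mouse, and the ages of the mice, are not known here.

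The design addressed the response of these cells to IFNa, a type I interferon, and its dependence on prior binding of the TCR. When a TCR is engaged, the ERK, calcium and calcineurin, NF-kB and protein kinase pathways reach the promoters of immediate early genes within minutes to hours, with no need for new protein. Nr4a1 (Nur77), Nr4a2 (Nurr1) and Nr4a3 (Nor1) are orphan nuclear receptors, and Nr4a1 is widely used as a reporter of recent TCR engagement. Egr1, Egr2 and Egr3 are zinc finger factors, and Egr2 and Egr3 also restrain T cells through genes such as Cblb. Irf4 rises with the strength of TCR signalling in conventional T cells, and Irf8 is a related interferon regulatory factor. Myc drives growth and metabolism after activation. Crem encodes activators and, from an internal promoter, the repressor ICER, all of which bind cyclic AMP response elements (CRE); counts per gene do not separate these products.

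The 3 NR4A promoters are shown because the family shares the CRE core TGACG while its members differed in the data below. The windows are the 250 bases before the annotated start, from RefSeq on GRCm38.p6, written 5′ to 3′ on the gene's strand, with capitals on TGACG or, for a match on the other strand, CGTCA. They are Nr4a1 at chr15:101266596-101266845 (plus strand), Nr4a2 at chr2:57124004-57124253 (minus strand) and Nr4a3 at chr4:48045055-48045304 (plus strand).
Nr4a1: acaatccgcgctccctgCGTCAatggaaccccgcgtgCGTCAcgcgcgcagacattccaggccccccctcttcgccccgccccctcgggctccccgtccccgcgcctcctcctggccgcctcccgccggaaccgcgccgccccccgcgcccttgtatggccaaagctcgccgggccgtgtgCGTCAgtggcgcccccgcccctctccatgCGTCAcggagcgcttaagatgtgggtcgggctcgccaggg
Nr4a2: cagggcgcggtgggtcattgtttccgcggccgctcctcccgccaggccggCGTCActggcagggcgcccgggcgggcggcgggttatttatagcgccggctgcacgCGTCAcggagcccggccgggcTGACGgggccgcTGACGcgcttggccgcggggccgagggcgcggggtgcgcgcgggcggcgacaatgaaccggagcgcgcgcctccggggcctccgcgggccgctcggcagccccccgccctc
Nr4a3: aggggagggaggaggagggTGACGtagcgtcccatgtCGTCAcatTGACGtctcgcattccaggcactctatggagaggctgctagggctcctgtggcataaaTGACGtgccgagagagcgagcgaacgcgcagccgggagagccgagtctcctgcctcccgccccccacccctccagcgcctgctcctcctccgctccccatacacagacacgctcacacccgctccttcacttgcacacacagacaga
Each window held 4 matches on either strand, and none of them overlapped a match to the other motifs named here. At least 1 match was present in 17.8% of 32851 promoter windows of the same length, and 4 or more in 0.137%. The matches of Nr4a1 began 233, 213, 69 and 40 bases before the start, and none of the 3 windows held the full palindrome TGACGTCA, which 1.55% of all windows held. An EGR site, searched as GCGNGGGCG on both strands, was present once in the Nr4a1 window and once in the Nr4a2 window, against 4.7% of all windows. A match is a run of letters and not a measured binding site.

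The interferon-stimulated response element searched as GAAANNGAAA, on both strands, had no match in the windows of Nr4a1, Nr4a2, Nr4a3, Egr2, Irf4 and Irf8, against 2.98% of all windows. The interferon-gamma activated site (GAS), searched as TTCNNNGAA, did match in the Irf8 window at chr8:120736108-120736357. Its matches began 171 and 153 bases before the start, and 7.02% of all windows held a match. The serum response element (CArG box) was found in 4 of the 5 windows of Egr2, 3 of which overlap and hold the same match, against 1.47% of all windows. Egr1, Egr3, Myc and Crem had no window and were not searched.

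Several libraries stood apart, and each result below is read against them. Totals ran from 19867201 to 26895876 estimated counts, and the members together took between 0.179% and 0.281% of a library. UC7-IFNa library 2 lay alone on the first principal component (108, against -26.5 to 11.1 in the other 12 libraries; 25.4% of the variance) and had 1.14% of its counts on the ribosomal transcript Rn18s, against 0.0866% to 0.333% elsewhere. Y-linked transcripts summed to 132 to 329 CPM (counts scaled to a common library total) in all 6 UC7-13D5 libraries and were near 0 in the 3 IgG-PBS libraries, which had Xist at 265 to 345 CPM. IgG-IFNa libraries 1 and 2 had Xist at 204 and 215 CPM with Y-linked transcripts near 2 CPM, while IgG-IFNa libraries 3 and 4 held both kinds, with Xist at 68.3 and 23.4 CPM and Y-linked transcripts at 210.0 and 320.3 CPM. With PBS, sex-linked transcripts and antibody therefore cannot be told apart. After IgG, the comparison of IFNa with PBS is also partly mixed with sex-linked transcripts, through IgG-IFNa libraries 3 and 4. The 13 heat-shock genes summed to 5563 to 8829 CPM in UC7-IFNa, 4765 to 7021 CPM in UC7-PBS, 6141 to 10706 CPM in IgG-IFNa and 10152 to 13791 CPM in IgG-PBS. The 16 markers of secretory epithelium summed to 409 to 1534 CPM in UC7-IFNa, 1084 to 2243 CPM in UC7-PBS, 749 to 1414 CPM in IgG-IFNa and 132 to 703 CPM in IgG-PBS, with none of them at 0 in any library. In the IgG-IFNa libraries 2 of these 16 markers, Zg16 and Fcgbp, rose against IgG-PBS, where 0.619% of all genes rose. Their part in the results on the members was not tested. The 15 markers of gd intraepithelial lymphocytes were present in every library and summed to 54741 to 81994 CPM in UC7-IFNa, 55233 to 65324 CPM in UC7-PBS, 53325 to 66072 CPM in IgG-IFNa and 47456 to 51311 CPM in IgG-PBS. Trdc, the delta chain constant region, averaged 191 CPM in UC7-IFNa, 205 CPM in UC7-PBS, 179 CPM in IgG-IFNa and 181 CPM in IgG-PBS. Alpha beta T cell markers were present too, Trac among them at 300.1 CPM in UC7-IFNa, 227 CPM in UC7-PBS, 223 CPM in IgG-IFNa and 201 CPM in IgG-PBS. These 9 markers summed to 1733 to 2762 CPM in UC7-IFNa, 1580.0 to 1878 CPM in UC7-PBS, 1573 to 2179.8 CPM in IgG-IFNa and 1590.3 to 1945 CPM in IgG-PBS. With IFNa their median log2 fold change was -0.49 on average, with none called in edgeR, and -0.55 after IgG, where Cd6 fell by 1.32 (SE 0.29, edgeR adjusted p = 0.0468). Their part in the results on the members was not tested.

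Levels are given in TMM-scaled CPM, and between genes as CPM per kilobase of annotated exon. In IgG-PBS, per kilobase, the order was Nr4a1 (185 ± 9.60, SD, n = 3), Nr4a2 (148 ± 27.3), Crem (83.5 ± 12.8), Myc (54.8 ± 5.81), Egr1 (22.9 ± 3.14), Irf8 (21.3 ± 3.87), Nr4a3 (12.1 ± 0.882), Egr2 (6.51 ± 0.438), Irf4 (2.81 ± 0.387) and Egr3 (0.484 ± 0.217). Between neighbours in that order, Egr1 and Irf8 overlapped in their libraries and the others did not. Within families the spread was wide: Nr4a1 stood far above Nr4a3, and Egr1 above Egr3. Egr3 rested on 4 to 87 estimated counts per library, so its precision was limited by depth. In UC7-IFNa, Crem and Nr4a2 were the highest per kilobase at 143 ± 15.5 and 139.7 ± 17.1, and Nr4a1 followed at 75.1 ± 7.74 (SD, n = 3).

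**Figure D1:**
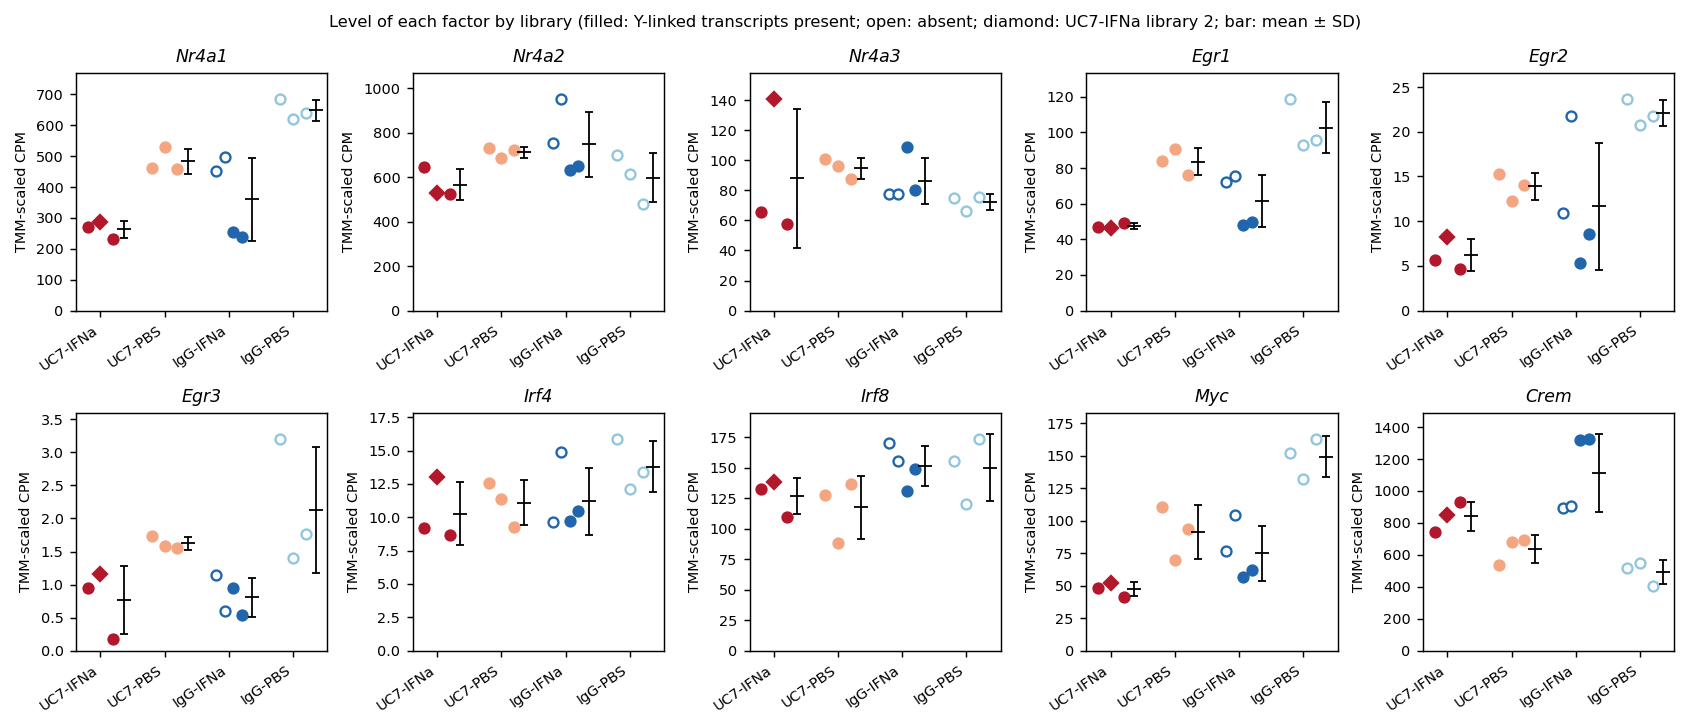
Each panel plots 1 factor in TMM-scaled CPM (linear axis from 0) for the 3 UC7-IFNa, 3 UC7-PBS, 4 IgG-IFNa and 3 IgG-PBS libraries, with the mean and SD as a bar beside the points. Nr4a1, Egr1, Egr2 and Myc are lowest in UC7-IFNa and highest in IgG-PBS by group mean, Crem runs the other way between IFNa and PBS, and within IgG-IFNa the filled points (Y-linked transcripts present) lie below the open ones for Nr4a1, Egr1, Egr2 and Myc.

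IFNa lowered Nr4a1, Egr1, Egr2 and Myc and raised Crem when its effect was averaged over both antibodies, while Nr4a2, Nr4a3, Egr3, Irf4 and Irf8 did not pass the test. With edgeR's quasi-likelihood test and Benjamini-Hochberg adjustment over all 15835 genes at a threshold of 0.05, 5 of 10 members were called (4 lower, 1 higher), against 1.99% of all genes (0.423% lower, 1.57% higher). The median log2 fold change was -0.49 over the 10 members and 0.0053 over all genes tested. In bulk RNA, fewer cells that express a gene and less transcript per cell cannot be told apart. Nr4a1, Egr1, Myc and Crem passed in each of the 13 fits that omitted 1 library, and Egr2 in 3 of the 13. The IFNa treatment itself was visible in a list of 16 interferon response genes, 15 of which rose on average, against 1.57% of all genes.

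**Figure D2:**
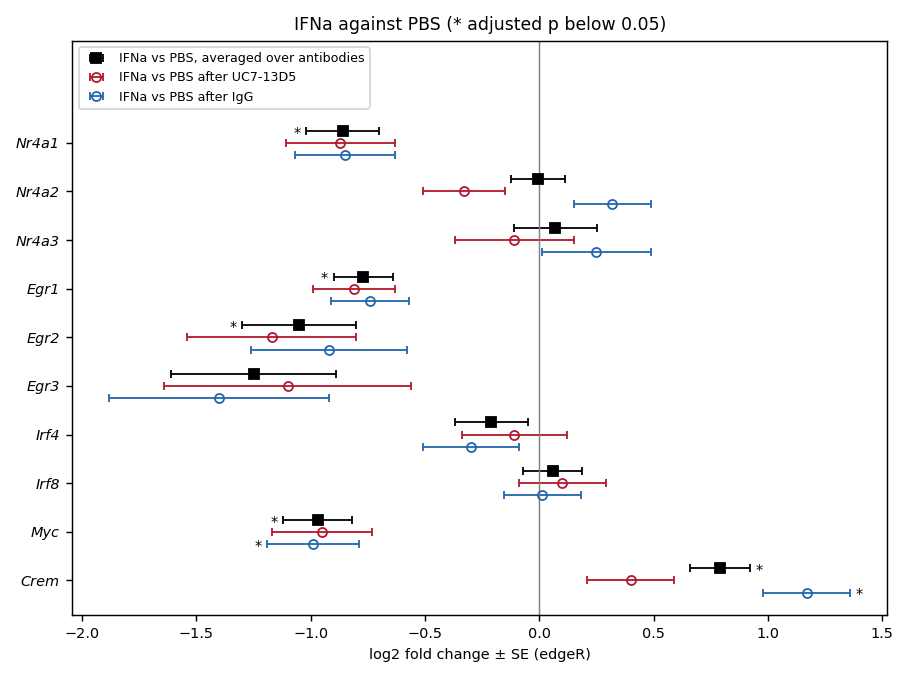
The log2 fold change of IFNa against PBS (x axis, ± SE, edgeR) for the 10 factors, averaged over antibodies (black squares), after UC7-13D5 (red circles) and after IgG (blue circles), with a star where the adjusted p was below 0.05. Nr4a1, Egr1, Egr2, Egr3 and Myc lie left of 0 in both antibody arms, with Nr4a1 at -0.87 and -0.85, and Crem lies right of 0 in both.

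Among the NR4A receptors, Nr4a1 fell and its relatives did not pass. Nr4a1 (ENSMUSG00000023034; mm39 chromosome 15, 101152150 to 101172677) stood at 272, 286 and 233 CPM in UC7-IFNa, against 460.4, 531 and 458 CPM in UC7-PBS. It stood at 453, 496, 253 and 238 CPM in IgG-IFNa, against 686, 619 and 641 CPM in IgG-PBS. In both antibody arms every IFNa library was below every PBS library, and the 4 IgG-IFNa libraries formed a high and a low pair. The averaged log2 fold change was -0.86 (SE 0.16, edgeR adjusted p = 0.0101). After UC7-13D5 it was -0.87 (SE 0.24, edgeR adjusted p = 0.268) and after IgG -0.85 (SE 0.22, edgeR adjusted p = 0.104), so neither arm passed alone. Nr4a2 (ENSMUSG00000026826; mm39 chromosome 2, 56996842 to 57014016), the second most abundant of the 10 per kilobase in IgG-PBS, averaged 567 ± 69.2 CPM in UC7-IFNa and 713 ± 25.2 CPM in UC7-PBS (SD, n = 3 each). It averaged 748 ± 147 CPM in IgG-IFNa (SD, n = 4) and 599 ± 111 CPM in IgG-PBS (SD, n = 3). The 2 arms thus had opposite signs, -0.33 (SE 0.18) after UC7-13D5 and 0.32 (SE 0.17) after IgG, and neither passed. Nr4a3 (ENSMUSG00000028341; mm39 chromosome 4, 48045153 to 48086448) ranged from 57.3 to 141 CPM in UC7-IFNa, with UC7-IFNa library 2 at 141 and the other 2 libraries at 65.4 and 57.3, against 87.3 to 101 CPM in UC7-PBS. Without that library its log2 fold change after UC7-13D5 was -0.64, with an edgeR adjusted p of 0.0868, against -0.11 with it. After IgG it ran from 77.5 to 109 CPM in IgG-IFNa and from 66.1 to 75.6 CPM in IgG-PBS; the groups did not overlap, yet the difference of 0.25 (SE 0.24) did not pass.

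All 3 EGR factors were lower with IFNa in both arms by fold change, and Egr1 and Egr2 passed on average. Egr1 (ENSMUSG00000038418; mm39 chromosome 18, 34992876 to 34998038), an immediate early gene downstream of ERK, stood at 47.2, 46.3 and 49.4 CPM in UC7-IFNa, against 83.9, 90.9 and 76.2 CPM in UC7-PBS. It stood at 72.4, 75.7, 48.1 and 50.0 CPM in IgG-IFNa, against 119, 93.0 and 95.7 CPM in IgG-PBS. The groups did not overlap in either arm, and the coefficient of variation of the UC7-IFNa libraries was 3.33%. Its averaged log2 fold change was -0.77 (SE 0.13, edgeR adjusted p = 0.00345), with -0.81 (SE 0.18) after UC7-13D5 and -0.74 (SE 0.17) after IgG. Egr2 (ENSMUSG00000037868; mm39 chromosome 10, 67371305 to 67378019) stood at 5.67, 8.19 and 4.69 CPM in UC7-IFNa, against 15.3, 12.3 and 14.1 CPM in UC7-PBS. It stood at 10.9, 21.8, 5.37 and 8.57 CPM in IgG-IFNa, against 23.7, 20.8 and 21.8 CPM in IgG-PBS. After UC7-13D5 the groups were apart, and after IgG they overlapped through IgG-IFNa library 2. The averaged change was -1.05 (SE 0.25, edgeR adjusted p = 0.0423). Leaving out single libraries moved that p between 0.00243 and 0.116, and the call was kept without UC7-IFNa library 2, IgG-IFNa library 2 or IgG-IFNa library 3 and lost with each of the other 10 omissions. Egr3 (ENSMUSG00000033730; mm39 chromosome 14, 70314652 to 70320064), the rarest member, averaged 0.763 ± 0.514 CPM in UC7-IFNa and 1.63 ± 0.0910 CPM in UC7-PBS (SD, n = 3 each), and 0.806 ± 0.291 CPM in IgG-IFNa (n = 4) and 2.13 ± 0.956 CPM in IgG-PBS (n = 3). Its groups were apart in both arms, but the averaged change of -1.25 (SE 0.36) had an edgeR adjusted p of 0.10. Without UC7-IFNa library 2 it was -1.45, with an adjusted p of 0.0276.

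Neither interferon regulatory factor moved past the test. Irf8 (ENSMUSG00000041515; mm39 chromosome 8, 121463097 to 121483434) averaged 127 ± 14.7 CPM in UC7-IFNa and 118 ± 26.0 CPM in UC7-PBS (SD, n = 3 each), and 152 ± 16.2 CPM in IgG-IFNa (n = 4) and 150.2 ± 27.3 CPM in IgG-PBS (n = 3). The averaged log2 fold change was 0.059, with a 95% interval of -0.21 to 0.33. Irf4 (ENSMUSG00000021356; mm39 chromosome 13, 30933209 to 30950960) averaged 10.3 ± 2.38 CPM in UC7-IFNa and 11.1 ± 1.66 CPM in UC7-PBS (SD, n = 3 each), and 11.2 ± 2.49 CPM in IgG-IFNa (n = 4) and 13.8 ± 1.90 CPM in IgG-PBS (n = 3). Its averaged change was -0.21, with a 95% interval of -0.54 to 0.13, and the groups overlapped in both arms. Irf8 is abundant in B cells and dendritic cells. Of 15 B and plasma cell markers 11 were in the table, and they summed to 808 to 1391 CPM in UC7-IFNa, 715 to 740.5 CPM in UC7-PBS, 838 to 928 CPM in IgG-IFNa and 694 to 829 CPM in IgG-PBS. By group mean Ighm stood at 241 to 297 CPM and Cd79b at 69.8 to 80.4 CPM, while Cd79a stood at 0.0825 to 0.507 CPM. With IFNa on average 1 of the 10 tested rose, against 1.57% of all genes: Igha, the heavy chain of IgA, at 0.99 (SE 0.16, edgeR adjusted p = 0.00410). Of 21 myeloid and dendritic markers 19 were in the table, and by group mean Itgax stood at 109 to 151 CPM and Cd74 at 38.2 to 67.2 CPM, while Flt3 was at 0 in 7 libraries. With IFNa on average 1 of the 17 tested rose, against 1.57% of all genes. The median log2 fold change of these 17 was 0.43, with 3 negative. The myeloid list summed to 329 to 381 CPM in UC7-IFNa, 270.1 to 376 CPM in UC7-PBS, 219.5 to 342 CPM in IgG-IFNa and 244 to 285 CPM in IgG-PBS, and the part of either list in the Irf8 level was not tested. Among 14 partners of these factors 1 rose and 1 fell with IFNa on average, against 1.57% and 0.423% of all genes. Spi1, which binds DNA together with either factor in B and myeloid cells, changed by 1.87 (SE 0.41, edgeR adjusted p = 0.0272) at levels of 1.71 CPM in UC7-IFNa, 0.502 CPM in UC7-PBS, 1.09 CPM in IgG-IFNa and 0.272 CPM in IgG-PBS. Tcf7, a factor of less differentiated T cells, changed by -0.42 (SE 0.10, edgeR adjusted p = 0.0392).

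Myc fell with IFNa, and it was the 1 member called lower within a single arm. Myc (ENSMUSG00000022346; mm39 chromosome 15, 61857240 to 61862224) stood at 48.2, 52.2 and 41.2 CPM in UC7-IFNa, against 110.2, 69.5 and 93.7 CPM in UC7-PBS. It stood at 76.4, 104, 56.7 and 61.9 CPM in IgG-IFNa, against 152, 132 and 163 CPM in IgG-PBS. The groups were apart in both arms. The averaged log2 fold change was -0.97 (SE 0.15, edgeR adjusted p = 0.00260), which is 0.510 times the PBS level. After IgG, where 2 of 10 members were called against 0.827% of all genes, it was -0.99 (SE 0.20, edgeR adjusted p = 0.0309), and 6 of the 13 single-library omissions kept that call. It was lost without UC7-PBS library 3, without IgG-IFNa library 1, 3 or 4 and without any one of the IgG-PBS libraries, with adjusted p between 0.0540 and 0.164 by edgeR. After UC7-13D5 it was -0.95 (SE 0.22, edgeR adjusted p = 0.118). Genes around Myc moved little. Of 9 tested partners and antagonists none passed on average; the one with the smallest p was Mxd1, a Max partner that opposes Myc, at 0.51 (SE 0.13, edgeR adjusted p = 0.0559). Of 33 growth genes that Myc is known to drive, 1 rose and none fell, against 1.57% and 0.423% of all genes. Their median of 0.0015 was close to the 0.0053 of all genes. The gene that rose was Slc3a2, the heavy chain of amino acid transporters, at 0.46 (SE 0.11), and its edgeR adjusted p of 0.050 lay just inside the threshold.

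Crem ran opposite to the other called members. Crem (ENSMUSG00000063889; mm39 chromosome 18, 3266048 to 3337749) stood at 745, 847 and 928 CPM in UC7-IFNa, against 536, 683 and 695 CPM in UC7-PBS. It stood at 893, 904, 1321 and 1328 CPM in IgG-IFNa, against 519, 551 and 407 CPM in IgG-PBS. Every IFNa library was above every PBS library of its arm, and the highest 2 of all 13 were IgG-IFNa libraries 3 and 4. The averaged log2 fold change was 0.79 (SE 0.13, edgeR adjusted p = 0.00504). After IgG it was 1.17 (SE 0.19, edgeR adjusted p = 0.00873), a 2.26-fold difference that kept its call in 11 of 13 omissions. Without IgG-PBS library 1 its edgeR adjusted p was 0.0546 and without IgG-PBS library 3 it was 0.0772. After UC7-13D5 it was 0.40 (SE 0.19), 1.32-fold, with an edgeR adjusted p of 0.679. None of 20 genes of cyclic AMP signalling passed on average; Pde4d, which degrades cyclic AMP, had the smallest p, at 0.62 (SE 0.18, edgeR adjusted p = 0.0934). Of 19 tested factors that act on the members' promoters, Srf and Creb1 among them, none passed either, and Foxo1 had the smallest p, at 0.72 (SE 0.19, edgeR adjusted p = 0.0737).

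**Figure D3:**
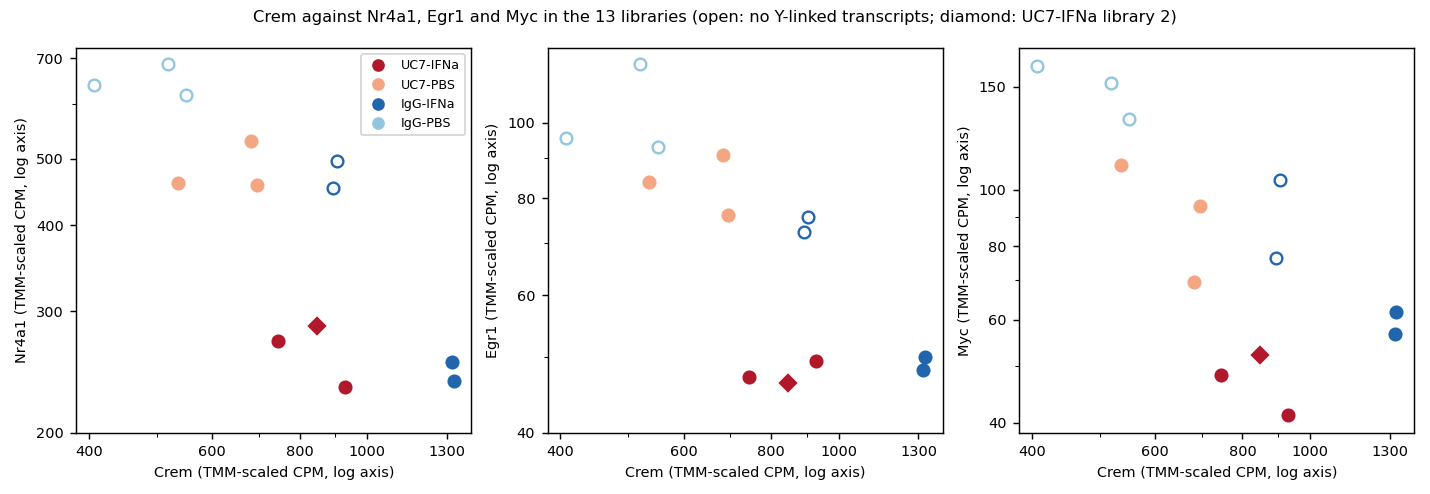
Crem (x axis) against Nr4a1, Egr1 and Myc (y axes) in the 13 libraries, all in TMM-scaled CPM on log axes, coloured by group, open where Y-linked transcripts were absent and with UC7-IFNa library 2 as a diamond. Within IgG-IFNa, libraries 3 and 4 lie at the highest Crem (1321 and 1328) and at lower Nr4a1 (253 and 238) than libraries 1 and 2 (453 and 496).

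After UC7-13D5 alone, none of the 10 members was called, against 0.360% of all genes; 4 members, all lower, had an unadjusted edgeR p under 0.05, against 7.59% of all genes, DESeq2 called 3 (Nr4a1, Egr1 and Myc), against 0.876%, and limma on the deposited normalized counts called none. By their libraries 7 of 10 members were apart in that arm, 6 of them lower (Nr4a1, Nr4a2, Egr1, Egr2, Egr3 and Myc), against 6.09% of all genes lower, and 1 higher (Crem), against 5.89%. After IgG 6 of 10 were apart, against 14.0% of all genes.

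Within IgG-IFNa the choice of libraries changed the calls. With libraries 3 and 4 left out, the IFNa effect after IgG was -0.45 for Nr4a1, -0.47 for Egr1, -0.72 for Myc and 0.87 for Crem, and no member was called in edgeR. With libraries 1 and 2 left out instead, a choice made after the data were seen, it was -1.40, -1.06, -1.33 and 1.43, and Egr2 joined these 4 among the called members at -1.66. Directions were the same in both fits. The share of all genes called without libraries 1 and 2 is not given here, so that member count cannot be set against it. Nr4a1 and Egr1 were then called after UC7-13D5 as well in either fit, at the same log2 fold changes of -0.87 and -0.81, with edgeR adjusted p-values of 0.0196 and 0.0368 in the first and 0.0183 and 0.0421 in the second. The omitted libraries are not part of that comparison, but all groups share an estimate of the spread. These calls are therefore no added evidence from the UC7-13D5 arm. The averaged effects of Nr4a1, Egr1, Myc and Crem passed either way, with log2 fold changes of -0.66, -0.64, -0.84 and 0.63 in the first fit and -1.14, -0.94, -1.14 and 0.91 in the second. The share of Y-linked transcripts varied within a group in IgG-IFNa alone, so a fit with that share as a covariate rests on the same split of these 4 libraries and is no separate check. It gave averaged values of -0.66, -0.64, -0.84 and 0.63, which passed, Egr2 had an edgeR adjusted p of 0.117, and 2 members (Nr4a1 at 0.00818 and Egr1 at 0.0201) were called after UC7-13D5. The share of all genes called after UC7-13D5 is not given here for the covariate fit or the fits that omit IgG-IFNa libraries. Those member calls therefore cannot be set against it. Without UC7-IFNa library 2, 4 members were called after IgG, Nr4a1 and Egr1 in addition to Myc and Crem, against 2.65% of all genes. In that fit 6 of 10 were called on average, against 5.75% of all genes.

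UC7-13D5 against IgG moved no member past the threshold. With PBS 0 of 10 members were called, against 0.00632% of all genes, and with IFNa 0 of 10, against 0.0758%. At an unadjusted edgeR p under 0.05 there was 1 member with PBS, against 5.00% of all genes, and 5 with IFNa, against 7.19%, all lower, and neither DESeq2 nor limma called any. These 2 comparisons share their libraries with the IFNa comparisons, so they are not separate evidence. With PBS, 5 of 10 members were apart by their libraries, Nr4a1, Egr1, Egr2 and Myc lower and Nr4a3 higher, against 12.4% of all genes; with IFNa, Myc alone was apart, against 6.78%. Averaged over IFNa and PBS, 0 of 10 were called in edgeR against 0.657% of all genes; 5 had an unadjusted p under 0.05, against 8.06%, DESeq2 called Myc, against 1.76%, and limma none. Myc came nearest, at -0.69 (SE 0.15, edgeR adjusted p = 0.0528), and without UC7-IFNa library 2 its edgeR adjusted p was 0.0356, the 1 member called there, against 0.709% of all genes. Without IgG-IFNa library 3 the adjusted p of Myc by edgeR was 0.0441, and with no filter on low counts 0.0469. Without both IgG-IFNa libraries 3 and 4, Nr4a1 was the called member, at -0.64 (edgeR adjusted p = 0.0373). Egr2 was at -0.79 (SE 0.25), Nr4a1 at -0.44 (SE 0.16), Egr1 at -0.33 (SE 0.13) and Irf8 at -0.30 (SE 0.13), with edgeR adjusted p-values of 0.274, 0.428, 0.447 and 0.540. Nr4a2, Nr4a3 and Crem were at -0.075, 0.21 and -0.015, with 95% intervals of -0.34 to 0.19, -0.17 to 0.59 and -0.30 to 0.27.

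The antibody differences changed with the choice of IgG-IFNa libraries. With IFNa and only libraries that carry Y-linked transcripts (3 UC7-IFNa against IgG-IFNa 3 and 4, a choice made after the data were seen), the log2 fold change was 0.099 for Nr4a1, -0.044 for Egr1, -0.18 for Egr2, -0.33 for Myc and -0.66 for Crem, and none was called in edgeR. Against IgG-IFNa 1 and 2 alone it was -0.85, -0.64, -1.41, -0.94 and -0.10. With the share of Y-linked transcripts as a covariate, the averaged antibody effect was 0.48 for Nr4a1, 0.22 for Egr1, 0.31 for Egr2, -0.13 for Myc and -0.52 for Crem. With PBS that share is fully confounded with the antibody, so these values are extrapolated from the split within IgG-IFNa and do not separate sex-linked makeup from antibody. All 13 heat-shock genes had a negative fold change for UC7-13D5 against IgG on average, with a median of -0.55, and none was called. Without UC7-IFNa library 2, 4 were called lower, with a median of -0.66, where 0.709% of all genes were called in either direction. With IFNa after IgG, 1 of the 13 fell, against 0.208% of all genes, and their median was -0.49 with 11 negative. For IFNa averaged over antibodies none was called, and 2 were lower without UC7-IFNa library 2, against 2.18% of all genes. Their part was not tested.

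**Figure D4:**
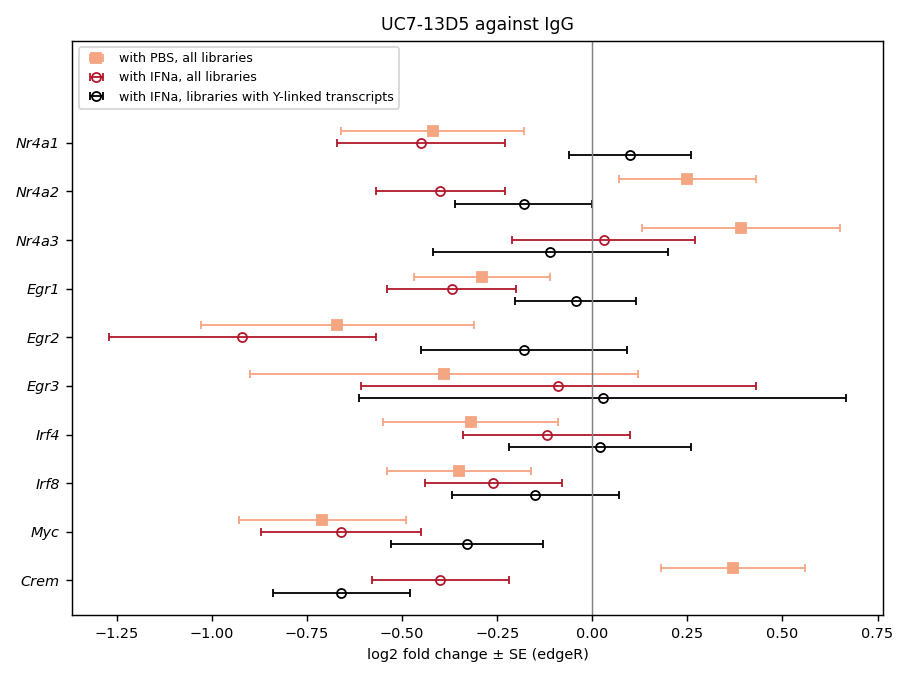
The log2 fold change of UC7-13D5 against IgG (x axis, ± SE, edgeR) for the 10 factors with PBS (orange squares), with IFNa (red circles) and with IFNa in libraries that carry Y-linked transcripts (black circles). Nr4a1, at -0.42 with PBS and -0.45 with IFNa, sits at 0.099 in the last, and no value passed.

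Whether UC7-13D5 altered the IFNa effect was tested as the interaction of antibody and IFNa. In edgeR 0 of 15835 genes passed (0% of all genes, 502 genes at an unadjusted p under 0.05; DESeq2 called 2 genes and limma 0), and so 0 of 10 members. The interaction was -0.025 for Nr4a1 (95% interval -0.71 to 0.66), -0.078 for Egr1 (-0.61 to 0.46) and 0.045 for Myc (-0.59 to 0.68). These intervals include no difference and also sizeable differences in either direction, so equal effects in the arms were not shown. Crem had the largest interaction of the called members, -0.78 (SE 0.27, unadjusted p = 0.0102, edgeR adjusted p = 1.00), its fold change being smaller after UC7-13D5. Nr4a2 had -0.65 (SE 0.25, unadjusted p = 0.0187, edgeR adjusted p = 1.00), since its arms had opposite signs.

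The other genes that TCR engagement switches on early were divided rather than uniformly lower. Of 48 such genes 3 rose and 7 fell with IFNa on average, against 1.57% and 0.423% of all genes, and 38 did not pass; their median was -0.12. Fos, the AP-1 subunit, fell by 0.81 on the log2 scale (SE 0.11, edgeR adjusted p = 0.000665). Nfkb2 and Relb, the subunits of the alternative NF-kB pathway, rose by 0.82 (SE 0.13, edgeR adjusted p = 0.00260) and 0.80 (SE 0.13, edgeR adjusted p = 0.00326). Without UC7-IFNa library 2 there were 5 that rose and 15 that fell, against 3.57% and 2.18% of all genes. After IgG 2 rose and 6 fell, against 0.619% and 0.208% of all genes, with Fos at -1.02, Jun, its AP-1 partner, at -1.47, and Ifng, the type II interferon, at -1.32. After UC7-13D5 Nfkbid, an atypical NF-kB inhibitor, was the 1 gene called, where 0.0253% of all genes fell, at -1.29 (SE 0.25, edgeR adjusted p = 0.0297). For UC7-13D5 against IgG on average, 1 rose and 3 fell, against 0.549% and 0.107% of all genes: Dusp2, a phosphatase that acts on ERK, at 1.52, and Fos at -0.58, Rgs16, a regulator of G protein signalling, at -0.99, and Nfkbiz, another atypical NF-kB inhibitor, at -0.61.

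**Figure D5:**
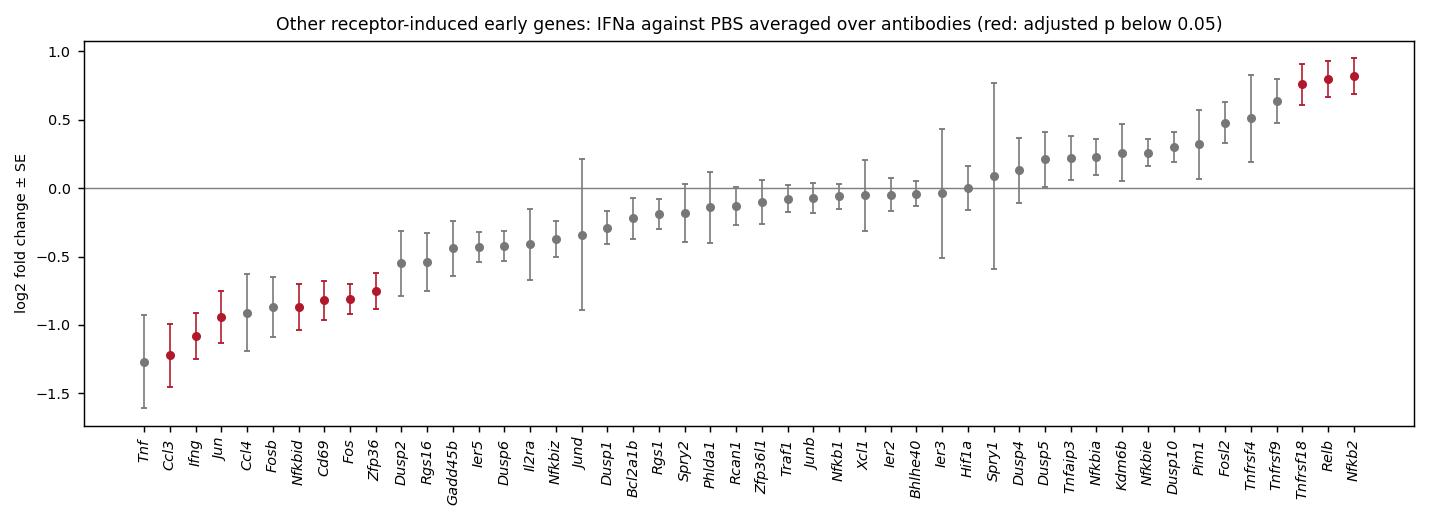
The log2 fold change of IFNa against PBS averaged over antibodies (y axis, ± SE, edgeR) for the 48 other early genes of TCR signalling, ordered by value, red where the adjusted p was below 0.05. Fos (-0.81) is among the 7 that fell, and Relb (0.80) and Nfkb2 (0.82) stand at the right end.

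None of 12 corepressors and targets of EGR factors passed with IFNa on average; Nab2, a corepressor that EGR factors induce, had the smallest p, at -0.54 (SE 0.16, edgeR adjusted p = 0.109). Without UC7-IFNa library 2, Dgka, a kinase that removes diacylglycerol, rose by 0.46, and Nab2 and the DNA-binding inhibitor Id3 fell by 0.59 and 0.65 (edgeR adjusted p = 0.0117, 0.0416 and 0.0377). In that fit 3.57% of all genes rose and 2.18% fell. None of 12 genes linked to NR4A factors in T cell exhaustion passed, and Ikzf2 had the smallest p, at 0.34 (SE 0.12, edgeR adjusted p = 0.158). For UC7-13D5 against IgG on average, 2 of 19 promoter factors rose, against 0.549% of all genes. They were Foxo1, a factor of quiescence that TCR signalling inactivates, at 1.32 (SE 0.19, edgeR adjusted p = 0.00678) and Mef2d, a calcium-responsive partner at the Nr4a1 promoter, at 0.76 (SE 0.15, edgeR adjusted p = 0.0301). Of 20 cyclic AMP genes 1 rose, against the same 0.549% of all genes: Prkaca, the catalytic subunit of protein kinase A, at 1.47 (SE 0.24, edgeR adjusted p = 0.0107). The sex-linked transcripts cannot be told apart from the antibody in the PBS part of these averages.

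Across the 13 libraries the called members formed 2 patterns. Spearman's rho was 0.96 between Egr2 and Myc, 0.92 between Nr4a1 and Egr2, 0.90 between Egr1 and Myc, and -0.85 between Nr4a1 and Crem. Nr4a2 and Nr4a3 stood aside, with no rho above 0.32 to another member for Nr4a2 and 0.23 for Nr4a3. Among 8674 other expressed genes, the closest in pattern to Nr4a1 were Cd69 (0.99), an early activation antigen, and Ifng (0.98). Those closest to Egr1 were Fos (0.97) and Asb3 (0.92), to Egr2 Tagap and Jun (0.92 each), and to Myc Csrnp1 (0.95) and Cln3 (0.92). Crem was closest to Isy1 and Dgat1 (0.98 each), Irf4 to the heat-shock gene Dnajb4 (0.89) and Zfp36l1 (0.86), and Irf8 to Asb2 (0.89) and Ubqln4 (0.87). Nr4a2 was closest to Ctsc and Mapk6 (0.84 each), Egr3 to Fbxo25 (0.90) and Hadh (0.89), and Nr4a3 to the goblet cell marker Spink4 (0.91) and the ribosomal gene Rpl27a (0.87). These values describe libraries that share groups, depth and the makeup given above, and carry no p.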

How the data were processed

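Libraries used SMART-Seq HT reagents, per the labels' protocols. Per the submitters' processing notes, STAR 2.7.8a, Partek, DESeq2 and the genome build mm39 were used, without saying which step each served. The authors deposited expected counts (estimated counts) per gene, 37.3% of them not whole, and a signal table of normalized counts for 11281 genes, each a constant multiple of the counts within a library, to a relative spread of 1.80e-06. Estimated counts were rounded. Library totals were 19867201 to 26895876.

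Genes were kept by edgeR's filterByExpr by group at a minimum count of 10, scaled by TMM and fitted in 1 robust quasi-likelihood model of all 13 libraries (edgeR 4.0.16, R 4.3.3), with 7 contrasts and Benjamini-Hochberg adjustment over the 15835 tested genes at 0.05, two-sided. SE is the fold change divided by the root of F. The fit recovered set fold changes in simulated counts, drawn without an outlying library or a split within IgG-IFNa. That simulation cannot show how these features of the real libraries act on the calls. Alternatives used DESeq2 1.42.0, limma 3.58.1 on log2 of the deposited normalized counts + 1, other filters and scalings, the replicate number as a block, the share of Y-linked transcripts as a covariate, and omissions of libraries. Same-numbered libraries did not deviate together (correlations of -0.210 to 0.135), so numbers were not taken to pair them.

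Exon lengths came from GENCODE M21, matched by Ensembl identifier, and promoter sequences from RefSeq. Both are on GRCm38 and gave no position for the counts. Members, gene lists and markers were chosen with earlier results of these data known. Outside the members the text names, per list and contrast, up to 3 called genes with the smallest p, or the 1 with the smallest p where none was called, and per member the 2 genes closest by Spearman's rho, among genes averaging 3 or more in log2 CPM. Zg16 and Fcgbp were named after their values were seen.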

Additional observations from a re-analysis of the deposited data

Results flagged for a closer look

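In 2 of the 10 members, 1 library of the 4 in IgG-IFNa lay far from its group, by the gap to its neighbour divided by the range of the group. For Nr4a3 that ratio was 0.904, with IgG-IFNa library 3 at 109 CPM and the others at 77.5, 77.6 and 80.5 CPM. For Irf4 it was 0.840, with IgG-IFNa library 2 at 14.9 CPM and the others at 9.65, 9.71 and 10.5 CPM. Both passed Dixon's 95% limit for 4 values, which chance passes in about 1 group in 20, and 10 groups were looked at. Neither member was called in any comparison.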

How the results depend on the processing

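The averaged IFNa effects of Nr4a1, Egr1, Myc and Crem kept their direction and stayed past the threshold under every alternative run, and Egr2 kept its direction but was lost with the replicate block (edgeR adjusted p = 0.0749), with the Y-linked covariate (0.117), without IgG-IFNa libraries 3 and 4 (0.108) and with 10 single omissions. No member changed sign, under any alternative, in a comparison where the edgeR fit of all 13 libraries called it. Sign changes of the same members in other comparisons are listed below. Same-numbered libraries did not deviate together (r between -0.210 and 0.135) and IgG-IFNa library 4 had no partner, so the replicate block shows only what the shared number does to the counts. With it Myc and Crem were no longer called after IgG (edgeR adjusted p = 0.225 and 0.0742). UC7-IFNa library 2 gave the highest count for each IFNa comparison when left out, and UC7-IFNa library 1 for UC7-13D5 with IFNa. The causes were not tested. Depth limits Egr3 most. Below, IFNa stands for its comparison with PBS and UC7-13D5 for its comparison with IgG, the covariate is the share of Y-linked transcripts, which varies within a group in IgG-IFNa alone, and fitting IgG-IFNa libraries without 1 and 2, or the covariate without UC7-IFNa library 2, was chosen after seeing the data.

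For IFNa after IgG, 131 genes were called, against 27 with the replicate block, 343 with only the groups compared, 21 without IgG-IFNa 3 and 4, 23 with the Y-linked covariate and 408 with DESeq2, and 24 to 430 with single omissions. For IFNa after UC7-13D5, 57 genes were called, against 34 with the replicate block, 22 with only the groups compared, 140 with that covariate and without UC7-IFNa 2 and 138 with DESeq2, and 29 to 110 with single omissions. For UC7-13D5 with PBS, 1 gene was called, against 0 with no filter, 19 with only the groups compared, 5 without IgG-IFNa 3 and 4, 5 without IgG-IFNa 1 and 2 and 64 with DESeq2, and 0 to 4 with single omissions. For UC7-13D5 with IFNa, 12 genes were called, against 1 with the replicate block, 0 with only the groups compared, 6 without IgG-IFNa 3 and 4, 3 without IgG-IFNa 1 and 2, 5 with the Y-linked covariate, 41 with that covariate and without UC7-IFNa 2, 118 with DESeq2 and 2 with limma, and 0 to 52 with single omissions. For the interaction, 0 genes were called, against 4 without IgG-IFNa 1 and 2 and 2 with DESeq2, and 0 to 1 with single omissions. For averaged IFNa, 315 genes were called, against 146 with the replicate block, 131 without IgG-IFNa 3 and 4, 170 with the Y-linked covariate, 736 with that covariate and without UC7-IFNa 2 and 781 with DESeq2, and 172 to 933 with single omissions. For averaged UC7-13D5, 104 genes were called, against 6 with the replicate block, 19 without IgG-IFNa 3 and 4, 69 without IgG-IFNa 1 and 2, 1 with the Y-linked covariate, 15 with that covariate and without UC7-IFNa 2 and 291 with DESeq2, and 27 to 136 with single omissions. For IFNa after IgG, 2 members were called, against 0 with the replicate block, 0 without IgG-IFNa 3 and 4, 5 without IgG-IFNa 1 and 2, 0 with the Y-linked covariate, 1 with that covariate and without UC7-IFNa 2 and 4 with DESeq2, and 0 to 5 with single omissions. For IFNa after UC7-13D5, 0 members were called, against 2 without IgG-IFNa 3 and 4, 2 without IgG-IFNa 1 and 2, 2 with the Y-linked covariate, 4 with that covariate and without UC7-IFNa 2 and 3 with DESeq2. For averaged UC7-13D5, 0 members were called, against 1 with no filter, 1 without IgG-IFNa 3 and 4 and 1 with DESeq2, and 0 to 1 with single omissions. Where the gene counts above leave out a setting, its member count has no share of all genes beside it.

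With no filter, signs changed in UC7-13D5 with IFNa (-0.0046 for Nr4a3). With the replicate block, signs changed in UC7-13D5 with IFNa (-0.050 for Nr4a3), the interaction (-0.024 for Myc), averaged IFNa (0.022 for Nr4a2) and averaged UC7-13D5 (0.027 for Crem). Without IgG-IFNa 3 and 4, signs changed in the interaction (-0.015 for Irf8, -0.23 for Myc), averaged IFNa (0.091 for Nr4a2, -0.0049 for Nr4a3) and averaged UC7-13D5 (0.14 for Crem). Without IgG-IFNa 1 and 2, signs changed in IFNa after IgG (-0.098 for Irf8), UC7-13D5 with IFNa (0.099 for Nr4a1, -0.11 for Nr4a3, 0.027 for Egr3, 0.020 for Irf4), the interaction (0.53 for Nr4a1, 0.25 for Egr1, 0.49 for Egr2) and averaged UC7-13D5 (0.034 for Nr4a2). With the Y-linked covariate, signs changed in UC7-13D5 with PBS (0.70 for Nr4a1, 0.39 for Egr1, 0.66 for Egr2, -0.28 for Crem), UC7-13D5 with IFNa (0.27 for Nr4a1, -0.13 for Nr4a3, 0.054 for Egr1, 0.13 for Egr3, 0.063 for Irf4), the interaction (-0.0030 for Irf8, -0.22 for Myc), averaged IFNa (0.089 for Nr4a2) and averaged UC7-13D5 (0.48 for Nr4a1, 0.31 for Nr4a2, -0.0097 for Nr4a3, 0.22 for Egr1, 0.31 for Egr2, 0.057 for Egr3, 0.031 for Irf4). With that covariate and without UC7-IFNa 2, signs changed in UC7-13D5 with PBS (0.70 for Nr4a1, 0.40 for Egr1, 0.67 for Egr2, 0.0038 for Irf4, -0.28 for Crem), UC7-13D5 with IFNa (0.20 for Nr4a1, -0.65 for Nr4a3, 0.066 for Egr1), the interaction (-0.25 for Egr3, -0.15 for Irf4, -0.078 for Irf8, -0.31 for Myc), averaged IFNa (0.11 for Nr4a2, -0.25 for Nr4a3) and averaged UC7-13D5 (0.45 for Nr4a1, 0.33 for Nr4a2, -0.27 for Nr4a3, 0.23 for Egr1, 0.19 for Egr2). With limma, signs changed in UC7-13D5 with IFNa (-0.065 for Nr4a3), the interaction (0.046 for Nr4a1) and averaged UC7-13D5 (0.0075 for Crem).

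With single omissions the log2 fold changes that crossed 0 spanned these ranges. In IFNa after IgG, Irf8 from -0.12 to 0.13. In IFNa after UC7-13D5, Nr4a3 from -0.64 to 0.12 and Irf8 from -0.067 to 0.23. In UC7-13D5 with PBS, Egr3 from -0.62 to 0.029. In UC7-13D5 with IFNa, Nr4a3 from -0.50 to 0.25, Egr3 from -0.50 to 0.38 and Irf4 from -0.34 to 0.045. In the interaction, Nr4a1 from -0.18 to 0.17, Egr1 from -0.20 to 0.037, Egr2 from -0.51 to 0.24, Egr3 from -0.12 to 0.77, Irf4 from -0.019 to 0.36, Irf8 from -0.081 to 0.23 and Myc from -0.12 to 0.25. In averaged IFNa, Nr4a2 from -0.075 to 0.059, Nr4a3 from -0.19 to 0.19 and Irf8 from -0.026 to 0.12. In averaged UC7-13D5, Nr4a3 from -0.055 to 0.32 and Crem from -0.077 to 0.034.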
